A study of Mus musculus with 15 samples.

Results

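The genes of cholesterol synthesis, its control by the transcription factor SREBP2, cholesterol ester turnover and cholesterol export were measured in mouse liver. The 32 listed genes were taken by symbol from a table of 15302 genes, and all 32 were in it and passed the filter on low counts. They comprise 18 synthesis enzymes, 5 genes of SREBP2 control and sterol transfer, 4 genes of ester formation and breakdown, and 5 genes of export and uptake from high-density lipoprotein (HDL). RNA came from whole livers of wild-type (WT) mice, with 5 libraries in each of 3 groups. All mice were put at 8 weeks of age on a diet for MASH, the steatohepatitis that comes with metabolic dysfunction, were housed singly and were kept at about 29°C. GDF15 mice were injected subcutaneously each day with recombinant GDF15, a hormone that lowers food intake, at 1 nmol/kg. PairFed mice were offered as much food as GDF15 mice had eaten on the previous day, and Vehicle mice were the controls. The sources used here do not give strain, sex, length of treatment or time of sampling. GDF15 against Vehicle holds the whole effect of the hormone including lower food intake, PairFed against Vehicle the effect of less food, and GDF15 against PairFed the difference between them.

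Liver cells make cholesterol from acetyl-CoA through mevalonate, farnesyl diphosphate, squalene and lanosterol. When sterol in the endoplasmic reticulum is low, the escort protein Scap carries SREBP2 to the Golgi, where it is cut and released to switch on the synthesis genes as a set. When sterol is high, Insig1 and Insig2 hold Scap back. Surplus cholesterol is esterified for storage or lipoproteins, passed to HDL, or secreted into bile.

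Levels are given as CPM, a library's counts scaled to a common total with edgeR's TMM factors. Library numbers follow the column order and serve only as names. Total counts ran from 8551557 to 10914914 in GDF15, from 10133289 to 12933324 in PairFed and from 9228127 to 12994187 in Vehicle libraries. The largest gap in totals set apart 5 deeper libraries, of which 0 were GDF15, 4 were PairFed and 1 was Vehicle, so depth and group were partly tied. Hepatocyte markers had the highest sum of the marker lists in every library, 92041 to 118919 CPM in GDF15, 87637 to 109593 CPM in PairFed and 78776 to 97994 CPM in Vehicle. GDF15 1 stood apart with the highest sum of immediate-early genes, 1257 CPM, and the lowest sum of Kupffer cell markers, 273 CPM. Immediate-early sums had medians of 707 CPM in GDF15, 498 CPM in PairFed and 355 CPM in Vehicle. Of these 10 genes, 9 were positive in GDF15 against Vehicle, with a median log2 fold change of 1.32. In that comparison 9 had an unadjusted p below 0.05 in edgeR's test, against 16.7% of all genes, and 0 passed after adjustment. The cause was not tested. In bulk liver, fewer cells of a type and less RNA per cell cannot be told apart.

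SREBP2 acts at promoters with the cofactors NF-Y and Sp1, so the start regions of some of the listed genes are shown as examples. RefSeq windows of build GRCm38.p6, from 250 bases before to 50 bases after the start, were at hand for 25 of the 32 genes. Fdps, Fdft1, Sqle, Stard4, Soat2, Abcg1 and Scarb1 had none. Capitals mark matches on either strand to the NF-Y letters CCAAT, which read as the reverse complement where the match is on the opposite strand, and to the sterol regulatory element letters TCACNCCAC. Hmgcs1 and Mvk encode early mevalonate enzymes, Msmo1 a sterol demethylase, Nceh1 and Lcat enzymes of ester turnover and Abcg5 a component of the bile sterol exporter.
Hmgcs1, chr13:119690101-119690400, plus strand: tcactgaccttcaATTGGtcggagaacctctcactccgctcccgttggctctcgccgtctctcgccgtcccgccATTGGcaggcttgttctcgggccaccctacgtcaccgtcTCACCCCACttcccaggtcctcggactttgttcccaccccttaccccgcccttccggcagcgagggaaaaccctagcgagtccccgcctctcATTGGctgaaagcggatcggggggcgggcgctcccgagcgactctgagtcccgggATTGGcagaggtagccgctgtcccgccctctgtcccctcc
Mvk, chr5:114444019-114444318, plus strand: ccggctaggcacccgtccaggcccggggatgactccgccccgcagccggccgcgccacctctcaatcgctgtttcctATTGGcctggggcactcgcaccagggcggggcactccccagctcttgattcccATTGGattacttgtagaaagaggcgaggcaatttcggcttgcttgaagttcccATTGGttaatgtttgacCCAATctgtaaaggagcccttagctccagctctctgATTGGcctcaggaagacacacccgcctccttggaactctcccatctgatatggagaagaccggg
Msmo1, chr8:64733529-64733828, minus strand: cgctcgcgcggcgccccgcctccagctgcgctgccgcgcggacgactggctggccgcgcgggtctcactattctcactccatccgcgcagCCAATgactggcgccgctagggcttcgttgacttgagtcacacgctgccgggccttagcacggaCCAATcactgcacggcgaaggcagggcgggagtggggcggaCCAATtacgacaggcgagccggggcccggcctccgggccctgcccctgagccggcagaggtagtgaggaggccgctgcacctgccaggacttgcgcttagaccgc
Nceh1, chr3:27182754-27183053, plus strand: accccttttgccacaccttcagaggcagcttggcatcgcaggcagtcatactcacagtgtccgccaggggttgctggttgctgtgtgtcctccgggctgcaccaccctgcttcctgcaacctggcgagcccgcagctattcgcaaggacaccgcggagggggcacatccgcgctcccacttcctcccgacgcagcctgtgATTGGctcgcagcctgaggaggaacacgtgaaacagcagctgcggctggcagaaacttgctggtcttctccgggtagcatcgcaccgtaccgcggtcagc
Lcat, chr8:105943353-105943652, minus strand: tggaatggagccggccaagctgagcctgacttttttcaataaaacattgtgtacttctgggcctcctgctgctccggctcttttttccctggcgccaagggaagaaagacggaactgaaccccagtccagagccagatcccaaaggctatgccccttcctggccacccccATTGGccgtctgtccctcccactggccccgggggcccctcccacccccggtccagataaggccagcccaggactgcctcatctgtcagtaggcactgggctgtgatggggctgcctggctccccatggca
Abcg5, chr17:84682962-84683261, minus strand: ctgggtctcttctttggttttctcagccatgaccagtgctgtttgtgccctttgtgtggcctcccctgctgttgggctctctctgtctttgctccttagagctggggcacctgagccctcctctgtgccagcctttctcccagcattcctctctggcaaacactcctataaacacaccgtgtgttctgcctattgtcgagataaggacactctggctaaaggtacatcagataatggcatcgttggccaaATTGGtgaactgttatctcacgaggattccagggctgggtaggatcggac

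The NF-Y letters were in 14 of the 15 synthesis genes with a window and in 22 of all 25 listed genes with one. They were in 41.1% of the 27025 genes of the RefSeq table and in 43.2% of the 9847 tested genes with a window. Mvk held 5 matches, Hmgcs1 4 and Msmo1 3, while Nceh1, Lcat and Abcg5 held 1 each. The numbers did not part by role. Among other synthesis genes, Cyp51, Lss, Pmvk, Sc5d and Tm7sf2 held 1 each and Acat2 held 0, while a window of Insig2 held 3 and one of Abcg8 held 2. The Sp1 letters GGGCGG, searched on both strands, were in 14 of the 15 synthesis genes and in 20 of the 25, against 38.2% of all genes in the table and 67.3% of the 9847 tested genes with a window. TCACNCCAC was in 1 of the 25 genes, Hmgcs1, 137 bases before its start, and in 1.44% of the 27025 genes of the table. No match of one motif shared bases with a match of another in these genes. The Abcg5 window shares 209 bases with a window of Abcg8, its neighbour on the opposite strand. A match describes letters in the window and is not evidence of binding.

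Few of the 32 genes, as of all tested genes, passed the threshold in any comparison. The threshold was an adjusted p of 0.05 in edgeR's quasi-likelihood test over 12274 genes. In GDF15 against Vehicle, 1 of the 32 passed, Lcat, which was higher, where 2.9% of all tested genes passed (2.02% higher and 0.88% lower). In the same test 8 of the 32 were below an unadjusted p of 0.05, against 16.7% of all genes. In GDF15 against PairFed, 1 of the 32 passed, Nceh1, which was lower, where 0.782% of all genes passed (0.562% higher and 0.22% lower). There 2 of the 32 were below an unadjusted p of 0.05, against 13.3% of all genes. In PairFed against Vehicle, 0 of the 32 passed edgeR's test, where 0.285% of all genes passed, and 11 were below an unadjusted p of 0.05, against 16.9% of all genes. DESeq2 called more of all genes as well as of the 32. It called 3 of the 32 in GDF15 against Vehicle (Lcat, Scap and Abcg8), where it called 5.23% of all genes, 1 in PairFed against Vehicle (Nceh1), where it called 2.76%, and 1 in GDF15 against PairFed (Nceh1), where it called 2.68% of the 9656 genes it gave an adjusted p. With limma-voom the counts were 1, 0 and 1 in that order, where it called 2.53%, 0.31% and 0.595% of all genes.

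**Figure D1:**
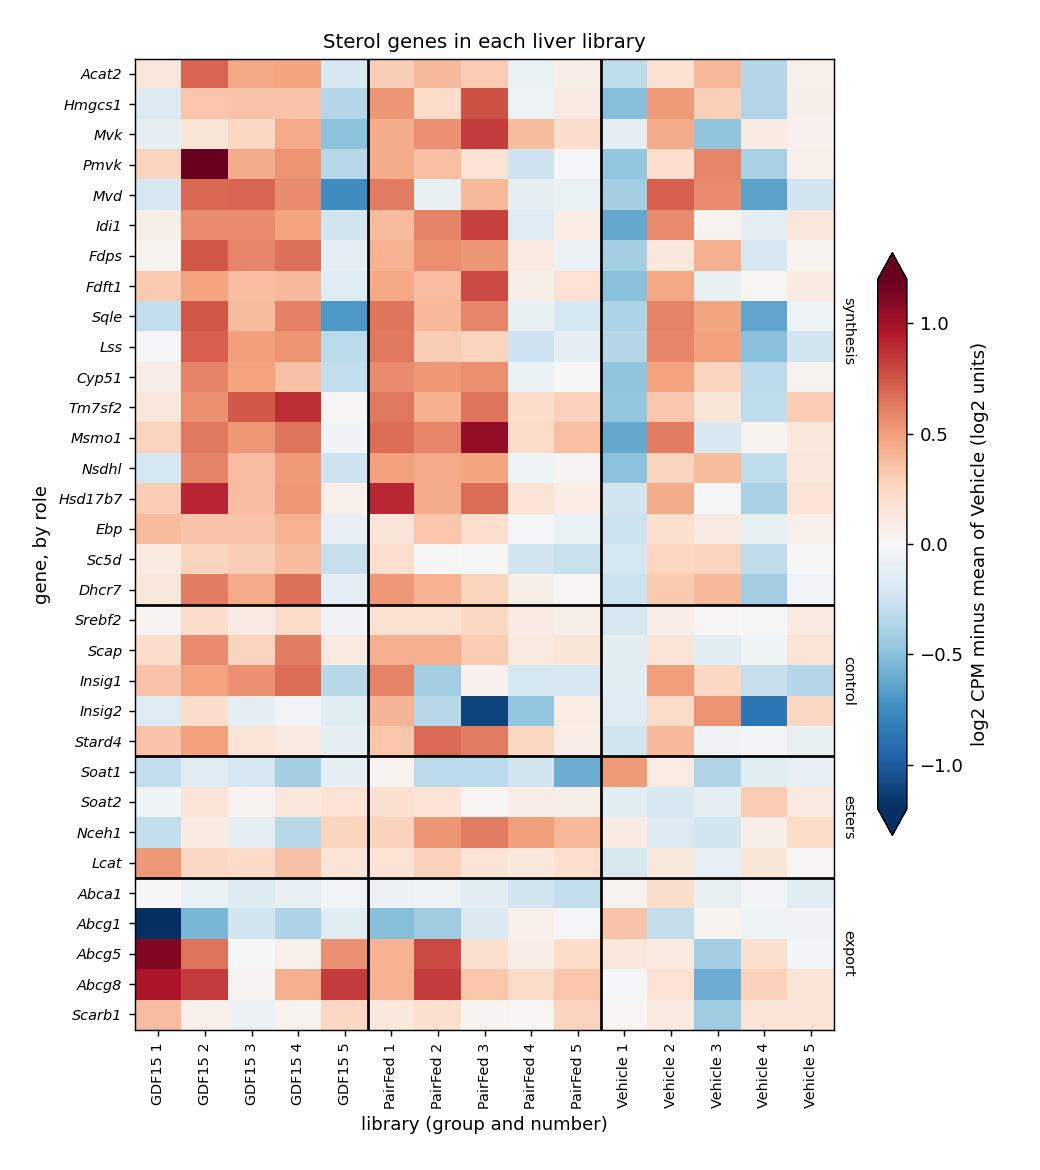
Level of each of the 32 genes in each library, as log2 CPM minus the mean of the 5 Vehicle libraries (colour, log2 units), with genes down the page by role and libraries across by group. GDF15 1 and 5, PairFed 4 and 5, and Vehicle 1 and 4 are pale or blue over most synthesis genes, while the other GDF15 and PairFed libraries are mostly red.

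The fold changes of the synthesis genes were small and mostly positive against Vehicle. In GDF15 against Vehicle, 18 of 18 synthesis genes had a positive log2 fold change, with a median of 0.27 (1.21-fold) and a range of 0.06 to 0.48. In PairFed against Vehicle, 17 of 18 were positive, with a median of 0.28 (1.21-fold) and a range of -0.06 to 0.55. Both comparisons share the Vehicle libraries. Between GDF15 and PairFed, 9 were positive and 9 negative, with a median of 0.02. Over all tested genes, 48.9% were positive in GDF15 against Vehicle, 49.9% in PairFed against Vehicle and 50.2% in GDF15 against PairFed. None of the 18 passed edgeR's test in any comparison, and DESeq2 and limma-voom also called 0. An unadjusted p below 0.05 was reached by 3 of the 18 in GDF15 against Vehicle, where 16.7% of all genes reached it, by 4 in PairFed against Vehicle, where 16.9% of all genes reached it, and by 1 in GDF15 against PairFed, where 13.3% of all genes reached it.

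**Figure D2:**
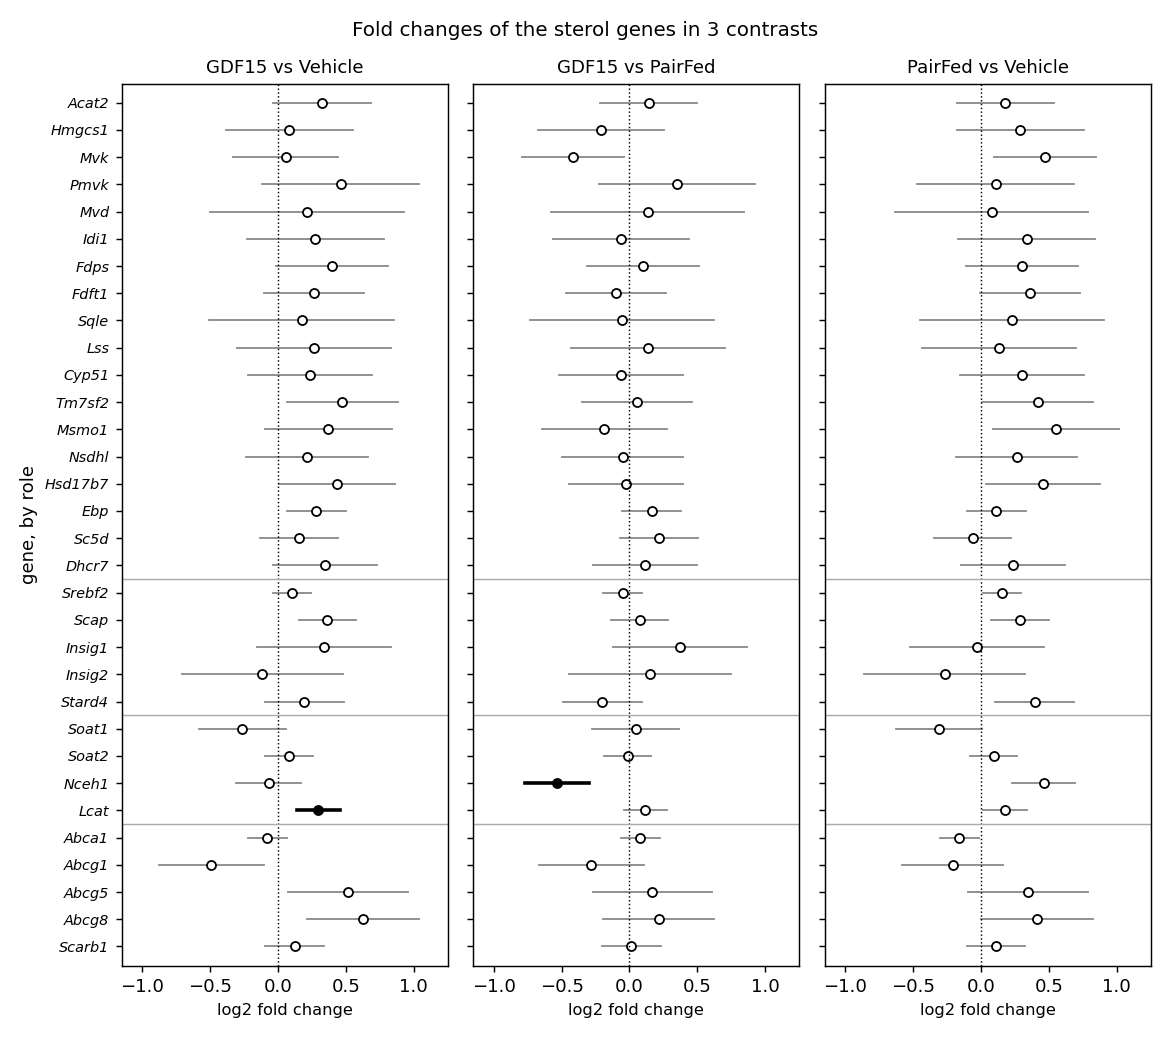
Log2 fold change of each of the 32 genes in the 3 comparisons (points) with 95% confidence intervals (lines), by role; filled points and thick lines are adjusted p below 0.05. Lcat in GDF15 against Vehicle and Nceh1 in GDF15 against PairFed are the filled points, and all 18 synthesis genes lie right of 0 in GDF15 against Vehicle.

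Ebp, a sterol isomerase late in the pathway (chromosome X, 8185329 to 8193512), was at 195, 191, 190.1, 201 and 141 CPM in the GDF15 libraries, at 166, 189, 173, 148 and 142 CPM in the PairFed libraries and at 126, 171, 160.4, 141 and 156 CPM in the Vehicle libraries. In the GDF15 group 4 libraries were above every Vehicle library and the remaining one, GDF15 5, lay among them. The log2 fold change of GDF15 against Vehicle was 0.28 ± 0.10 (SE, edgeR adjusted p = 0.16), and without GDF15 5 the call turned (0.36, adjusted p = 0.0421). PairFed differed from Vehicle by 0.11 ± 0.10 (edgeR adjusted p = 0.602).

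Mvk, mevalonate kinase (chromosome 5, 114444264 to 114460591), was the synthesis gene whose GDF15 and PairFed levels lay farthest apart. Its levels were 16.7, 20.2, 21.6, 25.0 and 12.9 CPM in GDF15, 24.8, 26.8, 32.8, 23.7 and 21.1 CPM in PairFed and 16.7, 24.8, 13.1, 19.5 and 18.8 CPM in Vehicle. GDF15 and Vehicle libraries covered nearly the same range, while PairFed 2 and 3 lay above both ranges and the other 3 PairFed libraries within them. Its log2 fold change was -0.42 ± 0.18 in GDF15 against PairFed (edgeR adjusted p = 0.319), 0.06 ± 0.18 in GDF15 against Vehicle (adjusted p = 0.918) and 0.47 ± 0.18 in PairFed against Vehicle (adjusted p = 0.19).

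Msmo1, which removes methyl groups from lanosterol products (chromosome 8, 64718123 to 64733578), was at 125, 162, 149, 162 and 101 CPM in GDF15, at 165, 156, 217, 122 and 134 CPM in PairFed and at 67.9, 160.4, 91.5, 107 and 113 CPM in Vehicle. All 3 groups overlapped. Vehicle 2 was close to the upper GDF15 libraries, and GDF15 5 was below Vehicle 4 and 5. Msmo1 differed by 0.37 ± 0.22 log2 in GDF15 against Vehicle (edgeR adjusted p = 0.429), 0.55 ± 0.22 in PairFed against Vehicle (adjusted p = 0.213) and -0.18 ± 0.22 in GDF15 against PairFed (adjusted p = 0.772).

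Among the other synthesis genes, the largest log2 fold changes of GDF15 against Vehicle were those of Tm7sf2, a sterol reductase, at 0.48 ± 0.19 (edgeR adjusted p = 0.22), Pmvk, phosphomevalonate kinase, at 0.46 ± 0.27 (adjusted p = 0.427), and Hsd17b7, a sterol ketoreductase, at 0.44 ± 0.20 (adjusted p = 0.285). Fdps, which makes farnesyl diphosphate, had 0.40 ± 0.19 (adjusted p = 0.321), Dhcr7, the last reductase before cholesterol, 0.35 ± 0.18 (adjusted p = 0.353) and Acat2, a thiolase that joins acetyl-CoA units, 0.32 ± 0.17 (adjusted p = 0.364). Hmgcs1, Idi1, Fdft1, Sqle, Lss, Cyp51, Nsdhl, Mvd and Sc5d lay between 0.08 and 0.28. Sc5d, a sterol desaturase, was the only one of the 18 with a negative value in PairFed against Vehicle, -0.06 ± 0.14 (adjusted p = 0.855). The annotated spans of Fdft1, Cyp51 and Tm7sf2 overlap those of other genes (Ctsb, Akap9 and Vps51), and Acat2 has a copy, Acat3. Whether the reads of these genes were kept apart is unknown, because how strand and copies were counted is not stated in these sources.

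The spread between libraries of one group was wide in the synthesis genes. Their standard deviation (SD) of log2 CPM within groups had a median of 0.34, with a low of 0.18 for Ebp and a high of 0.55 for Mvd, against 0.18 over all tested genes and 0.14 over the 8236 genes in the same range of mean level. Mvd and Hmgcs1, chosen after their values were seen, show how the libraries parted. Mvd, mevalonate diphosphate decarboxylase, was at 31.2, 58.0, 58.4, 53.0 and 21.2 CPM in GDF15, at 55.2, 33.8, 46.9, 33.1 and 33.9 CPM in PairFed and at 27.0, 58.8, 53.1, 22.9 and 30.5 CPM in Vehicle. Its highest GDF15 library was 2.75 times its lowest, and its highest Vehicle library 2.57 times its lowest. Hmgcs1, which makes HMG-CoA for the mevalonate step, was at 432, 611, 611, 613 and 382 CPM in GDF15, at 698, 562, 824, 463 and 517 CPM in PairFed and at 340.0, 688, 589, 379 and 507 CPM in Vehicle. In both genes GDF15 1 and 5 were the low GDF15 libraries, and Vehicle 1 and 4 the low Vehicle libraries.

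The 18 genes moved as a block from library to library. GDF15 2 and GDF15 4 were above their group mean in 18 of 18 synthesis genes and GDF15 3 in 17, while GDF15 1 was above it in 2 and GDF15 5 in 0. GDF15 5 had the lowest level of its group in all 18, with a median of -0.48 log2 relative to the group mean. In PairFed, libraries 1, 2 and 3 were above the mean in 17, 13 and 18 genes, and libraries 4 and 5 in 0 and 0. In Vehicle, libraries 2, 3 and 5 were above it in 18, 14 and 13 genes, and libraries 1 and 4 in 0 and 3. These library medians ran from -0.48 to 0.31 in GDF15, from -0.30 to 0.22 in PairFed and from -0.40 to 0.44 in Vehicle. The medians of 0.27 and 0.28 between groups compare groups of 5 libraries, so a range of single libraries does not measure their error. Because the genes share this movement, the counts of positive fold changes are not counts of independent genes. Of the 5 deeper libraries, PairFed 2 to 5 and Vehicle 4, PairFed 4, PairFed 5 and Vehicle 4 were low and PairFed 2 and 3 high.

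**Figure D3:**
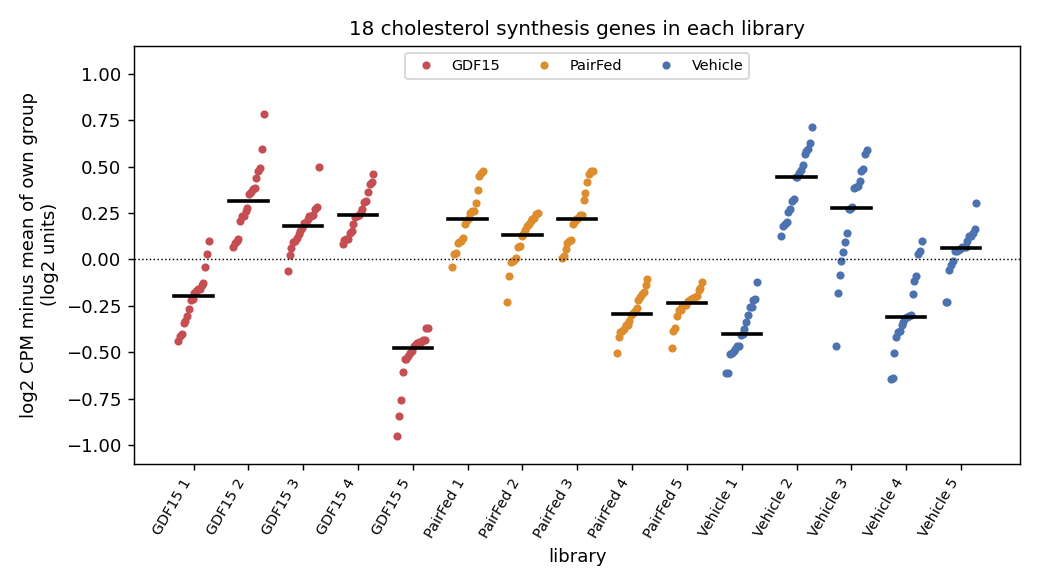
Log2 CPM of the 18 synthesis genes in each library minus the mean of the library's own group (points, sorted by value within a library), with the median as a black bar; the dotted line is the group mean. The bars run from -0.48 to 0.31 in GDF15, from -0.30 to 0.22 in PairFed and from -0.40 to 0.44 in Vehicle.

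Against the Vehicle mean, the median synthesis gene was at 0.10, 0.61, 0.45, 0.52 and -0.24 log2 in the GDF15 libraries, at 0.50, 0.41, 0.54, -0.06 and 0.02 in the PairFed libraries and at -0.40, 0.44, 0.28, -0.31 and 0.06 in the Vehicle libraries themselves. The upper libraries of GDF15 and PairFed lay near or above Vehicle 2, and their lower ones lay within the Vehicle range.

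Of the SREBP2 control genes, 0 of 5 passed edgeR's test in any comparison. Unadjusted p-values below 0.05 were reached by 1 of them in GDF15 against Vehicle (16.7% of all genes), 3 in PairFed against Vehicle (16.9% of all genes) and 0 in GDF15 against PairFed (13.3% of all genes). DESeq2 called 1, Scap in GDF15 against Vehicle, and limma-voom 0. The median log2 fold change was 0.20 in GDF15 against Vehicle, 0.15 in PairFed against Vehicle and 0.08 in GDF15 against PairFed.

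Scap, the escort of SREBP2 (chromosome 9, 110333288 to 110384949), was the gene just outside the threshold in GDF15 against Vehicle. It was at 149, 191, 155, 197 and 139 CPM in GDF15, at 174, 174, 159, 140.0 and 142 CPM in PairFed and at 118, 143, 118, 124 and 143 CPM in Vehicle. In GDF15 only library 5 lay within the Vehicle range. The log2 fold change of GDF15 against Vehicle was 0.36 ± 0.10 (1.29-fold, edgeR adjusted p = 0.0600), and the gene passed without GDF15 5 (adjusted p = 0.0338) and with DESeq2 (adjusted p = 0.0243). PairFed differed from Vehicle by 0.29 ± 0.10 (edgeR adjusted p = 0.165) and GDF15 from PairFed by 0.08 ± 0.10 (adjusted p = 0.806), a sign that turned when depth was taken into account.

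Srebf2, which encodes SREBP2 (chromosome 15, 82147269 to 82205379), varied least of all 32 genes within groups, with an SD of 0.10 log2. Its levels were 86.8, 98.0, 90.4, 98.3 and 82.1 CPM in GDF15, 96.1, 95.8, 100.3, 90.8 and 88.6 CPM in PairFed and 73.7, 89.6, 85.1, 84.5 and 91.0 CPM in Vehicle. The groups overlapped, with the lowest value in Vehicle 1. Srebf2 differed by log2 fold changes of 0.10 ± 0.07 in GDF15 against Vehicle (edgeR adjusted p = 0.476), 0.15 ± 0.07 in PairFed against Vehicle (adjusted p = 0.256) and -0.05 ± 0.07 in GDF15 against PairFed (adjusted p = 0.81).

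Stard4, a carrier that moves cholesterol between membranes (chromosome 18, 33199138 to 33213862), was at 108, 119, 94.3, 91.2 and 78.3 CPM in GDF15, at 107, 136, 130.4, 101 and 89.5 CPM in PairFed and at 72.9, 111, 82.2, 82.6 and 79.5 CPM in Vehicle. Vehicle 2, which was also high in 18 of 18 synthesis genes, stood above the other Vehicle libraries. PairFed differed from Vehicle by 0.40 ± 0.14 (edgeR adjusted p = 0.169), GDF15 from Vehicle by 0.20 ± 0.14 (adjusted p = 0.516) and GDF15 from PairFed by -0.20 ± 0.14 (adjusted p = 0.572).

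The Insig genes, chosen for full values after these were seen, parted within groups in different ways. Insig1, itself an SREBP2 target, was at 631, 695, 726, 789.6 and 395 CPM in GDF15, at 749.6, 372, 515, 430.2 and 434 CPM in PairFed and at 456, 705, 592, 409.5 and 390.3 CPM in Vehicle. GDF15 5 and Vehicle 4 and 5 were low, and PairFed 1 was far above the other PairFed libraries. Insig2 was at 371, 479, 381, 405 and 373 CPM in GDF15, at 549, 329, 192, 299 and 439 CPM in PairFed and at 371, 484, 603, 227 and 492 CPM in Vehicle. PairFed 3, the highest library of its group for Hmgcs1, Mvk and Msmo1, was the lowest for Insig2. Insig1 differed by 0.34 ± 0.23 in GDF15 against Vehicle (edgeR adjusted p = 0.496) and by 0.37 ± 0.23 in GDF15 against PairFed (adjusted p = 0.518), and Insig2 by -0.12 ± 0.27 (adjusted p = 0.882) and 0.15 ± 0.28 (adjusted p = 0.867).

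**Figure D4:**
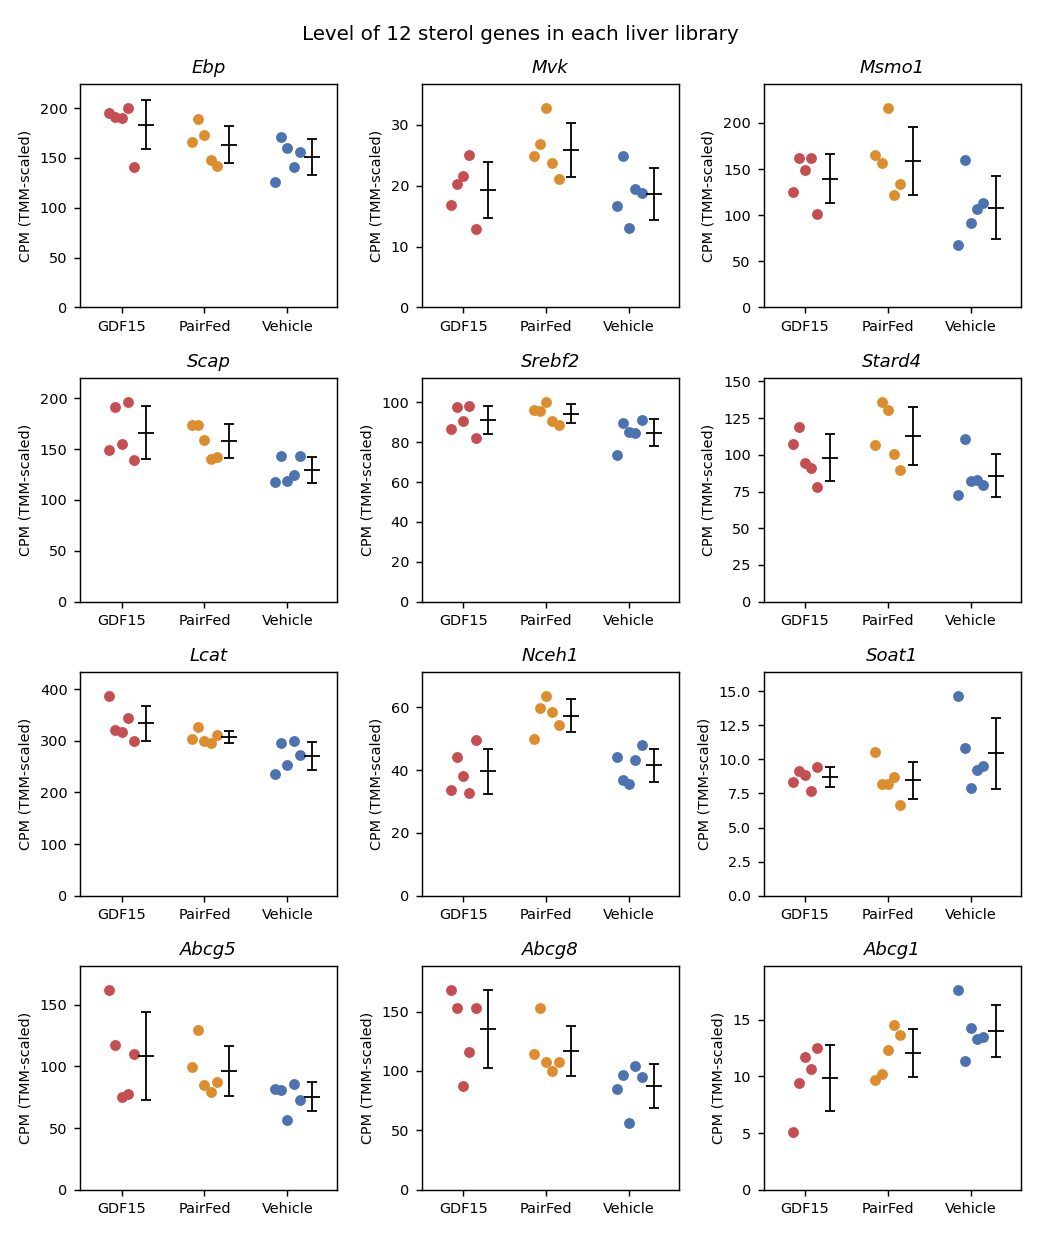
Level in CPM of 12 genes in each library (points), with the group mean and SD beside them (n = 5 each). GDF15 libraries lie above all Vehicle libraries for Lcat and below all PairFed libraries for Nceh1, and GDF15 5 is the lowest GDF15 point for Ebp, Mvk, Msmo1, Scap, Srebf2 and Stard4.

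Lcat and Nceh1, the genes that passed the test, are both listed under ester turnover, but each was a single call in a different comparison, with opposite signs. Lcat (chromosome 8, 105939551 to 105943402) encodes the secreted enzyme that esterifies cholesterol on HDL and is made chiefly by hepatocytes. It was at 387, 320.2, 316, 344 and 299.7 CPM in GDF15, at 304, 326, 299, 295 and 311 CPM in PairFed and at 236, 295, 253, 299 and 272 CPM in Vehicle. No GDF15 library overlapped the Vehicle range, where 2.48% of all tested genes were higher without overlap, but the lowest GDF15 library was close to the highest Vehicle one. Means were 333 ± 33.8 CPM in GDF15, 307 ± 12.1 CPM in PairFed and 271 ± 27.1 CPM in Vehicle (SD, n = 5 each). Lcat rose by 0.30 ± 0.08 log2 in GDF15 against Vehicle (95% confidence interval 0.14 to 0.46, 1.23-fold, edgeR adjusted p = 0.0434). It differed by 0.18 ± 0.08 in PairFed against Vehicle (adjusted p = 0.24) and by 0.12 ± 0.08 in GDF15 against PairFed (adjusted p = 0.534).

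The call of Lcat was close to the threshold. It was lost in 10 of the 15 fits that left out a library (Vehicle 1, 3 or 5, GDF15 1, 2 or 4, PairFed 1, 3, 4 or 5), with log2 fold changes between 0.24 and 0.33 in those 15 fits and adjusted p-values up to 0.122. The summed hepatocyte markers were also higher in GDF15 than in Vehicle, with 8 of 8 markers positive, 2 of them past the test, and a median log2 fold change of 0.24. GDF15 1 had the highest hepatocyte sum, 118919 CPM, and the highest Lcat level, and Vehicle 1 had the lowest of both, with a sum of 78776 CPM. Not every library went this way. Vehicle 4 had a lower hepatocyte sum than Vehicle 2, 3 and 5, 85748 CPM, but the highest Vehicle level of Lcat, 299 CPM. The part of the hepatocyte markers in the Lcat difference was not tested.

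Nceh1 (chromosome 3, 27183004 to 27245266) encodes a hydrolase that frees cholesterol from its esters, known best from macrophages. It was at 33.6, 44.2, 38.2, 32.6 and 49.6 CPM in GDF15, at 49.9, 59.7, 63.6, 58.6 and 54.5 CPM in PairFed and at 44.1, 36.8, 35.4, 43.4 and 48.1 CPM in Vehicle. Every PairFed library lay above every GDF15 and every Vehicle library, by a narrow margin over GDF15 5. Means were 39.6 ± 7.2 CPM in GDF15, 57.3 ± 5.25 CPM in PairFed and 41.6 ± 5.29 CPM in Vehicle (SD, n = 5 each). Nceh1 fell by 0.53 ± 0.11 log2 in GDF15 against PairFed (95% confidence interval -0.77 to -0.30, 1.45-fold lower, edgeR adjusted p = 0.0348), where 1.55% of all tested genes were lower without overlap. PairFed differed from Vehicle by 0.46 ± 0.11 (edgeR adjusted p = 0.0735). In that comparison Nceh1 passed with DESeq2 (adjusted p = 0.0132) and in edgeR's fits without Vehicle 5 (adjusted p = 0.0498) or PairFed 1 (adjusted p = 0.0439). In edgeR's fits without any other library it did not pass, at adjusted p-values of up to 0.183. The PairFed libraries did not overlap the Vehicle ones, where 2.21% of all genes were higher without overlap. GDF15 differed from Vehicle by -0.07 ± 0.11 (95% confidence interval -0.31 to 0.17, edgeR adjusted p = 0.821).

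Since 4 of the 5 PairFed libraries were deeper and 0 of the GDF15 ones, the Nceh1 difference was fitted with depth. With a term for the deeper libraries, GDF15 against PairFed was at -0.40 ± 0.16 (edgeR adjusted p = 0.498), and in the shallower libraries alone, which leave 1 PairFed library, at -0.33. PairFed against Vehicle was at 0.37 ± 0.14 with that term (edgeR adjusted p = 0.375) and at 0.28 in the shallower libraries. The call in GDF15 against PairFed was lost in 8 of the 15 fits without a library, those without GDF15 1, 2, 3 or 4 or PairFed 2, 3, 4 or 5, at adjusted p-values of up to 0.101. Macrophage markers gave these values beside it: Kupffer cell markers summed to 273 to 578 CPM in GDF15, 361 to 490.3 CPM in PairFed and 414 to 581 CPM in Vehicle. Markers of lipid-associated and recruited macrophages summed to 153 to 234 CPM in GDF15, 141 to 233 CPM in PairFed and 178 to 326 CPM in Vehicle, and the lowest edgeR adjusted p between GDF15 and PairFed was 0.561 among the Kupffer cell markers and 0.511 among the others. Of 7 endothelial markers, 7 were negative in GDF15 against PairFed, with a median log2 fold change of -0.47. In PairFed against Vehicle 7 were positive, with a median of 0.43, and 0 passed edgeR's test in either comparison. The part of any of these marker lists in the Nceh1 difference was not tested.

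Soat1 and Soat2 encode the acyltransferases that store cholesterol as ester. Per kilobase of exon, Soat2, the hepatocyte form, was at 27.1 CPM in GDF15, 27.4 in PairFed and 25.6 in Vehicle, while Soat1, the form of macrophages and many other cells, was at 0.888, 0.863 and 1.07 CPM per kilobase in the same order, the lowest of the 32 genes. Soat1 was at 8.31, 9.18, 8.87, 7.65 and 9.46 CPM in GDF15, at 10.5, 8.18, 8.19, 8.67 and 6.68 CPM in PairFed and at 14.6, 10.9, 7.90, 9.23 and 9.52 CPM in Vehicle. Vehicle 1 was the high library, and it also had the highest sum of lipid-associated and recruited macrophage markers, 326 CPM. Vehicle 1 was highest as well for Kupffer cell (581 CPM), stellate cell and fibroblast (710 CPM) and bile duct (468 CPM) markers. Soat1 differed by -0.26 ± 0.15 in GDF15 against Vehicle (edgeR adjusted p = 0.415) and by -0.31 ± 0.15 in PairFed against Vehicle (adjusted p = 0.301). Soat2 differed by 0.08 ± 0.08 (adjusted p = 0.681) and 0.09 ± 0.08 (adjusted p = 0.595) in those comparisons.

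Among the export genes, 0 of 5 passed edgeR's test in any comparison, and limma-voom also called 0, while DESeq2 called 1, Abcg8 in GDF15 against Vehicle. An unadjusted p below 0.05 was found for 3 in GDF15 against Vehicle (16.7% of all genes), 2 in PairFed against Vehicle (16.9% of all genes) and 0 in GDF15 against PairFed (13.3% of all genes). Abcg5 and Abcg8 form the transporter that secretes sterol into bile. They are neighbours on opposite strands of chromosome 17, Abcg5 at 84658174 to 84683011 and Abcg8 at 84676302 to 84700333, so their annotated spans overlap and the reads of one could be counted with the other.

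Abcg8 was at 168, 153, 87.3, 116 and 153 CPM in GDF15, at 114, 153, 108, 100.1 and 107 CPM in PairFed and at 84.9, 96.2, 56.7, 104 and 95.2 CPM in Vehicle. In GDF15, 4 of 5 libraries lay above every Vehicle library. The log2 fold change of GDF15 against Vehicle was 0.63 ± 0.19 (1.55-fold, edgeR adjusted p = 0.0997), and the gene passed without GDF15 3 (adjusted p = 0.0238) and with DESeq2 (adjusted p = 0.0170). It was 0.41 ± 0.19 in PairFed against Vehicle (edgeR adjusted p = 0.289) and 0.21 ± 0.19 in GDF15 against PairFed (adjusted p = 0.682).

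Abcg5 was at 162, 117, 75.0, 77.8 and 109.6 CPM in GDF15, at 99.8, 129, 85.2, 79.1 and 87.2 CPM in PairFed and at 81.8, 80.8, 56.2, 85.3 and 73.1 CPM in Vehicle. GDF15 1 was highest and Vehicle 3 lowest for both transporter genes, and GDF15 3 was the lowest GDF15 library for both. Abcg5 differed by 0.52 ± 0.21 in GDF15 against Vehicle (edgeR adjusted p = 0.216), by 0.35 ± 0.20 in PairFed against Vehicle (adjusted p = 0.407) and by 0.17 ± 0.20 in GDF15 against PairFed (adjusted p = 0.781). GDF15 5, the lowest of its group in all 18 synthesis genes, was above the group mean in 5 of 5 export genes. Libraries went both ways in this. GDF15 4, above the mean in 18 synthesis genes, and Vehicle 1, above it in 0, were above it in 1 and 4 export genes. PairFed 4 and 5, above it in 0 synthesis genes, were above it in 1 and 2 export genes, and Vehicle 2, above it in 18, in 4.

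Abcg1, which passes cholesterol from macrophages and other cells to HDL (chromosome 17, 31057694 to 31117984), was at 5.11, 9.41, 11.7, 10.7 and 12.5 CPM in GDF15, at 9.70, 10.2, 12.3, 14.5 and 13.7 CPM in PairFed and at 17.6, 11.4, 14.2, 13.3 and 13.5 CPM in Vehicle. The low value was that of GDF15 1, which had the lowest Kupffer cell sum, and the high one that of Vehicle 1, which had the highest sum of both macrophage marker lists. Other libraries went the other way for lipid-associated and recruited macrophage markers. GDF15 5 (153 CPM) and PairFed 4 and 5 (151 and 141 CPM) had the lowest sums of their groups but the highest Abcg1 levels. For Kupffer cell markers GDF15 5 had the highest GDF15 sum, 578 CPM. GDF15 1 also had the lowest endothelial (53.6 CPM), stellate cell and fibroblast (285 CPM) and bile duct (125 CPM) sums. Vehicle 1 also had the highest stellate cell and fibroblast (710 CPM) and bile duct (468 CPM) sums. The log2 fold change of GDF15 against Vehicle was -0.49 ± 0.18 (edgeR adjusted p = 0.171) and, without GDF15 1, -0.34 (adjusted p = 0.296). Of the 8 markers of lipid-associated and recruited macrophages, 8 had negative fold changes in that comparison, with a median of -0.38, and 1 passed (Ly6c2). In PairFed against Vehicle 8 were negative too, with a median of -0.60, and 1 passed (Lpl). Abcg1 differed by -0.21 ± 0.18 there (edgeR adjusted p = 0.578). The part of any marker list in the Abcg1 values was not tested.

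Abca1, which loads cholesterol onto apolipoprotein A-I, and Scarb1, the HDL receptor, differed little. Abca1 lay between 115 and 129.6 CPM in GDF15, between 105 and 125 CPM in PairFed and between 118 and 149 CPM in Vehicle, a log2 fold change of -0.08 ± 0.07 in GDF15 against Vehicle (edgeR adjusted p = 0.607) and -0.16 ± 0.07 in PairFed against Vehicle (adjusted p = 0.244). Scarb1 lay between 186 and 252 CPM in GDF15, between 196 and 234 CPM in PairFed and between 145 and 216 CPM in Vehicle, a log2 fold change of 0.12 ± 0.10 in GDF15 against Vehicle (adjusted p = 0.59).

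Other genes of the pathway were read from lists that share no gene with the 32. Of 9 other genes that respond to SREBP2, 2 rose in GDF15 against Vehicle and the same 2 in PairFed against Vehicle, and 0 passed edgeR, DESeq2 or limma-voom in GDF15 against PairFed, where 1 had an unadjusted p below 0.05, against 13.3% of all genes. These were Fads1 and Fads2, desaturases of polyunsaturated fatty acids that are also targets of other lipid regulators. Fads1 was at 1328 ± 142 CPM in GDF15, 1248 ± 58.6 CPM in PairFed and 909 ± 114 CPM in Vehicle (SD, n = 5 each), which put it 0.55 ± 0.09 log2 higher in GDF15 than in Vehicle (edgeR adjusted p = 0.00228) and 0.46 ± 0.09 higher in PairFed than in Vehicle (adjusted p = 0.0360). Fads2 rose by 0.49 ± 0.10 in GDF15 against Vehicle (adjusted p = 0.0136) and by 0.51 ± 0.10 in PairFed against Vehicle (adjusted p = 0.0407). Under 24 other fits, the GDF15 call was lost in 0 for Fads1 and in 2 for Fads2, those without GDF15 2 and with only the shallower libraries. The PairFed call was lost in 11 for Fads1, which were the depth term, only the shallower libraries, and the fits without Vehicle 1, 2, 3 or 4, GDF15 4, or PairFed 2, 3, 4 or 5. For Fads2 it was lost in 14, the same 11 and those with only the 2 groups or without GDF15 2 or 5. The median of the 9 genes was 0.42 in GDF15 against Vehicle and 0.22 in PairFed against Vehicle.

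These 9 genes also varied by library with the synthesis block. GDF15 1 and GDF15 5 were above the group mean in 0 of the 9, and GDF15 2, 3 and 4 in 8, 7 and 9. PairFed 5 was above it in 0, PairFed 4 in 3, and PairFed 1, 2 and 3 in 5, 7 and 6. Vehicle 1 and 4 were above it in 2 each, and Vehicle 2, 3 and 5 in 7, 7 and 4.

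In the remaining lists 0 genes passed edgeR's or limma-voom's test in any comparison. Unadjusted p-values below 0.05 in GDF15 against Vehicle were reached by 1 of 10 genes that process SREBP or turn over Insig proteins, 0 of 9 of the isoprenoid branches, 0 of 11 that move sterol inside the cell, 4 of 11 of lipoprotein handling and 2 of 7 sterol-sensing receptors, against 16.7% of all genes. In PairFed against Vehicle the counts were 0, 1, 1, 3 and 3, against 16.9% of all genes, and in GDF15 against PairFed 1, 0, 3, 2 and 1, against 13.3% of all genes. DESeq2 called 3 genes, which are named after their values were seen. They were Lrpap1, a chaperone of lipoprotein receptors, against Vehicle in both other groups, and Gramd1c, a sterol transfer protein, and Nr1h4, the bile acid receptor, in GDF15 against PairFed. The median log2 fold changes of GDF15 against Vehicle were 0.00 for SREBP processing, -0.02 for the isoprenoid branches, -0.04 for sterol movement, 0.19 for lipoprotein handling and 0.13 for the receptors, beside 0.27 for the 18 synthesis genes.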

How the data were processed

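The authors deposited a table of whole-number estimated counts per gene symbol, not scaled to depth, for 15302 genes in 15 liver libraries, and every gene in it had a summed count of at least 5. The submitters' processing notes name Salmon, which estimates counts per transcript, DESeq2 and the mouse build mm10, and give neither their versions nor what each was used for. Per the labels' protocols, total RNA was made into libraries with a directional kit. For the counting, neither the strand setting nor the transcript set is stated in these sources. Columns were assigned to groups by name and could not be tied to single samples. The p-values set differences between groups against the spread between these libraries.

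Genes were filtered with filterByExpr (count 10, total count 15) in edgeR 4.0.16 under R 4.3.3, which left 12274 genes. With TMM scaling, 1 quasi-likelihood model with robust estimation over all 15 libraries gave the 3 comparisons, adjusted by Benjamini-Hochberg over all tested genes. The script was tested on simulated data. Standard errors derive from the F statistic, and log2 CPM used a prior count of 2. Alternatives were DESeq2 size factors, upper-quartile factors, no filter, a filter of 10 CPM in 5 libraries, DESeq2 1.42.0, limma-voom 3.58.1, only the 2 groups compared, a term for the deeper libraries, only the shallower libraries, and leaving out each library. The gap in totals that defines the deeper libraries lay between 10914914 and 12137462.

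The 32 genes, the lists of other genes and the tests were chosen with earlier results of these data known. Values in every library are given for each gene past the threshold and for the 3 genes with the smallest unadjusted p in each role, 12 in all, and a gene named beyond that rule in full is given as such. Coordinates, which lie on GRCm38.p6, and promoter windows are from RefSeq, which matched 15289 symbols of the table. Exon lengths are the union of exons in GENCODE M21.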

Additional observations from a re-analysis of the deposited data

Results flagged for a closer look

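Among 36 combinations of 12 genes and 3 groups, 3 held a library far from the others of its group, and chance flags about 1 in 20 such groups. Ebp was at 141 CPM in GDF15 5, where the other GDF15 libraries lay between 190.1 and 200.5 CPM. Stard4 was at 111 CPM in Vehicle 2, where the other Vehicle libraries lay between 72.9 and 82.6 CPM. Abcg8 was at 153 CPM in PairFed 2, where the other PairFed libraries lay between 100.1 and 114 CPM. GDF15 5 and Vehicle 2 are the libraries in which 0 and 18 of the 18 synthesis genes were above the group mean.

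The effects of GDF15 and of pair feeding on Nceh1, both taken against Vehicle, differed by -0.53 log2 (edgeR's quasi-likelihood test, adjusted p = 0.0348), and all 5 GDF15 libraries were below all 5 PairFed libraries. Under the other settings and left-out libraries the adjusted p lay between 0.00199 and 1.00.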

How the results depend on the processing

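No paired analysis was possible because the columns carry no number that ties a library of one group to a library of another. In GDF15 against Vehicle the count of 1 called gene became 0 with upper-quartile factors, without a filter, with only the 2 groups compared and with only the shallower libraries, and 3 with DESeq2. It ranged from 0 to 3 when a library was left out. For Lcat the adjusted p was 0.0535 with upper-quartile factors, 0.0526 without a filter, 0.103 with only the 2 groups, 0.0873 in the shallower libraries and 0.0342 with the depth term. In PairFed against Vehicle the count of 0 became 1 with DESeq2 (Nceh1) and ranged from 0 to 1 when a library was left out. In GDF15 against PairFed the count of 1 became 0 with only the 2 groups (Nceh1, adjusted p = 0.0534), with the depth term and in the shallower libraries, and ranged from 0 to 1 when a library was left out. The median log2 fold change of the 32 genes, 0.25 in GDF15 against Vehicle and 0.23 in PairFed against Vehicle, kept its sign throughout (0.14 to 0.35 and 0.15 to 0.37). In GDF15 against PairFed it was 0.05, moved to -0.16 with the depth term and -0.12 in the shallower libraries, and ranged from 0.02 to 0.10 when a library was left out.

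Some signs turned. In GDF15 against Vehicle, Mvk was at -0.049 without Vehicle 3 and -0.060 without GDF15 4 (range -0.060 to 0.18 over left-out libraries). In GDF15 against PairFed, Scap was at -0.022 with the depth term and -0.066 in the shallower libraries, Soat1 at -0.20 and -0.27 under the same settings and -0.028 without PairFed 5 (range -0.028 to 0.13), Abcg1 at 0.040 in the shallower libraries, and Abcg5 at -0.020 without GDF15 1 (range -0.020 to 0.30). The cause was not tested. Soat1 did not pass the stricter filter and has no value there. DESeq2 called 642 of all genes in GDF15 against Vehicle in place of 356, 339 in PairFed against Vehicle in place of 35, and 259 in GDF15 against PairFed in place of 96.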
